A study of Mus musculus with 2 samples.

Results

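Imprinted genes are expressed mainly from the copy inherited from 1 parent, and 10 of them that act on growth, namely Meg3, Rian, Mirg, Dlk1, H19, Cdkn1c, Peg3, Plagl1, Ndn and Mest, were followed here in cultures of mouse osteoblasts at an earlier and a later time of their differentiation. The members were every probe set annotated with 1 of these symbols, 38 probe sets in all, out of 45101 probe sets on the array and 18193 genes named on it. The group was selected on the signals themselves: it was chosen because Meg3, Cdkn1c and Peg3 had bright signals at day 5 and lower ones at day 12, so those differences are given as a description. The study cultured calvarial (skull roof) cells of newborn mice. The cells cultured were those without CD11b, a myeloid surface protein. Both groups received ascorbic acid and β-glycerophosphate and no other treatment. The day 5 group was cultured in this way for 5 days and the day 12 group for 12 days. Neither the strain nor any genetic change was given in the labels, nor how many animals supplied the cells. Each day was 1 array, so there is no replicate error and no test for any difference, which holds for these 2 arrays alone. The arrays do not tell the 2 parental copies apart, so the imprinted state itself was not measured.

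Imprinting is set in the germ line by DNA methylation at control regions, and these regions switch whole clusters of genes. Several imprinted genes form opposed sets, in which paternally expressed genes tend to promote fetal growth and maternally expressed ones to restrain it. Dlk1, Meg3, Rian and Mirg lie in 1 cluster, where Dlk1 is expressed from the paternal copy and the 3 noncoding RNA genes from the maternal copy. Cdkn1c, the gene of the cyclin-dependent kinase inhibitor p57, is maternally expressed and is needed for normal growth of cartilage and bone. Peg3, Plagl1, Ndn and Mest are paternally expressed.

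The promoter windows of 4 members are shown because they put genes with lower day 12 signals (Meg3, Rian, Peg3) beside 1 without (Mest), at the places where imprinting marks and the members' own transcription factors could act. Each is the RefSeq window of 300 bases, from 250 before to 50 after the annotated start, in the build GRCm38.p6. Capitals mark CG dinucleotides, the sites of DNA methylation, and in Peg3 also the letters GGGGCCCC.
Meg3, chr12:109540746-109541045, plus strand: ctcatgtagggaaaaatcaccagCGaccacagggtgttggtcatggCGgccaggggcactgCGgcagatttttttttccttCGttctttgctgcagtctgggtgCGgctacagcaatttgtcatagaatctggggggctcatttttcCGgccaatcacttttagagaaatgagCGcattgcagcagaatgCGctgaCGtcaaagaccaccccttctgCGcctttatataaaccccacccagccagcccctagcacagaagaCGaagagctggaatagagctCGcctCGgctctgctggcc
Rian, chr12:109603695-109603994, plus strand: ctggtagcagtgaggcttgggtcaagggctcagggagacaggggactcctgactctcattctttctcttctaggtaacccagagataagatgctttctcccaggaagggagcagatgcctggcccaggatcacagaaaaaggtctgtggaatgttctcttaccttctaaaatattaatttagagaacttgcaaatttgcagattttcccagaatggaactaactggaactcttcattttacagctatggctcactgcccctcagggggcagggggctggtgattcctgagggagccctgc
Peg3, chr7:6730370-6730669, minus strand: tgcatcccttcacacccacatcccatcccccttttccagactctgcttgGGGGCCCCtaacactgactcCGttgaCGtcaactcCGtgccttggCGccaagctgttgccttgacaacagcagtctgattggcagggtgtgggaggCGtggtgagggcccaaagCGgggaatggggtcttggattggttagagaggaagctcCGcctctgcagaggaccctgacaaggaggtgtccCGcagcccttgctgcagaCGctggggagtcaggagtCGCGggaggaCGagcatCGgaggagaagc
Mest, chr6:30737800-30738099, plus strand: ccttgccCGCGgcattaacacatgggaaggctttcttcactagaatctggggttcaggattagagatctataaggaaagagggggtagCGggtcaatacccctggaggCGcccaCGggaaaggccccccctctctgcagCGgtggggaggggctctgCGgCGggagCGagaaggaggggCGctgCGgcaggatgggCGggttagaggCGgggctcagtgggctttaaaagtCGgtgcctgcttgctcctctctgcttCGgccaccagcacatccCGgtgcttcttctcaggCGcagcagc
The Meg3 and Peg3 windows each hold 13 CG dinucleotides, the Mest window 17 and the Rian window 0, against a median of 7 over 32851 promoter windows of the same length. Windows were in the table for 8 of the 10 members, all but Cdkn1c and H19, 11 windows in all. The windows of the members not shown hold 26 CG for Plagl1, 11 for Ndn, 10 for Mirg and 9 for Dlk1. Meg3 and Mest have further annotated starts, whose windows hold 1 CG for Meg3, and 8 and 17 for Mest, so the count depends on the start taken.

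A set of 3 motifs was searched on both strands of those windows. GGGGCCCC, which reads the same on both strands and is bound by the member Plagl1, a zinc finger transcription factor, was found in 1 of the 11 windows, at bases 50 to 57 of the Peg3 window. It occurs in 1.08% of all promoter windows. GCCATNTT, a motif of the factor YY1, and the longer Peg3 motif of the Peg3 protein occur in 6.05% and 0.484% of all windows and were found in none of the 11. These matches are letters in the sequence only, and no binding was measured.

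The H19 probe set carried a second symbol, Mir675, because the microRNA lies inside the H19 gene. Its mature sequences, with the seed (bases 2 to 8) in capitals, show which short RNA shares this annotation.
mmu-miR-675-5p: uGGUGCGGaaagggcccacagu
mmu-miR-675-3p: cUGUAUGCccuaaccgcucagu
These seeds differ from each other. By the RefSeq positions, Meg3 also spans 2 microRNA genes, Rian 3 and Mirg 10. The arrays report the long host RNAs and not the mature microRNAs.

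A probe set was called measured where its signal reached a floor, the 60th percentile of its array, on at least 1 array. This level was 46.6 on the day 5 array and 44.8 on the day 12 array. Dimmer signals were set to it, and the log2 ratio compares day 12 with day 5, so a gene below it on 1 array has only a bound, written "at least". Of the 38 member probe sets, 20 were above the floor on both arrays, 5 on the day 5 array alone and 13 on neither. Each gene was represented by its leading probe set, the one whose log2 signal averaged over the arrays was highest. All 9 members with a probe set of their own were measured, 7 of them on both arrays. Signals of different probe sets depend on their probes and are not compared with each other.

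Meg3, Cdkn1c and Peg3, 3 of the 9 members, were lower by 2-fold or more at day 12, and no member was higher by that much. Over all 10479 measured genes 1.73% were at least 2-fold lower and 3.56% at least 2-fold higher. Nothing is read from the first count, since these 3 genes were chosen for their difference. Nor is anything read from the 9 members' median log2 ratio of -0.88, which includes them. The median of the other 6 members was -0.52, and it includes Mirg and Dlk1, which were measured through day 5 alone and so had to lie below 0. Over all measured genes it was -0.05, and the middle 50% of genes lay between -0.27 and 0.17. Of the members not chosen for their difference, Rian, Plagl1, Ndn and Mest were measured on both arrays. A ratio below 0 was found in 3 of these 4, and in 56.9% of all genes measured on both arrays, and none of the 4 passed 2-fold. Of all 20 member probe sets that both arrays measured, 8 were lower by 2-fold or more, and all 8 belong to Meg3, Cdkn1c and Peg3, so nothing is read from that count either. Of all measured probe sets 1.78% were that much lower and 3.11% that much higher, and 56.4% of all measured genes had a ratio below 0. The other members had 11 probe sets measured on both arrays, with 9 with lower deposited signals at day 12, and none past 2-fold. These 9 all belong to Rian, Plagl1 and Ndn. They repeat the same genes on the same arrays, so nothing further is read from their number.

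**Figure D1:**
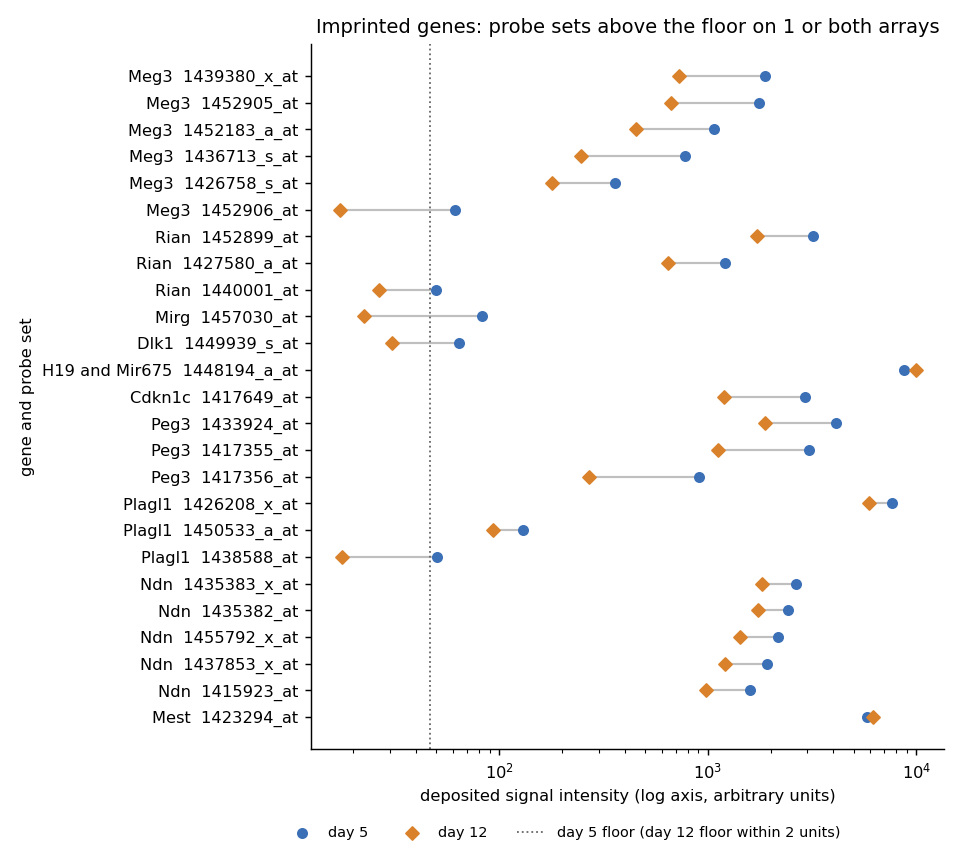
Deposited signal intensity (log axis, arbitrary units) of the 25 member probe sets above the floor on at least 1 array, with circles for day 5, diamonds for day 12 and a dotted line at the day 5 floor. All probe sets of Meg3, Rian, Peg3, Plagl1 and Ndn shown lie lower at day 12, while those of Mest and of H19 with Mir675 have nearly the same deposited signal on both arrays.

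Meg3 is a long noncoding RNA known as a growth suppressor and as the maternal counterpart of Dlk1. It had 11 probe sets, of which 5 were above the floor on both arrays, 1 at day 5 alone and 5 on neither. Its leading probe set went from a signal of 1888 to 726, a log2 ratio of -1.38 or 2.60-fold lower. The next went from 1761 to 668 (log2 ratio -1.40) and the third from 1076 to 453 (-1.25). All 3 were lower by similar factors. The fourth went from 777 to 246, which was the largest difference of a Meg3 probe set (log2 ratio -1.66, 3.16-fold lower). The fifth went from 358 to 180.0 and lay just short of 2-fold (log2 ratio -0.99). The sixth had 61.2 at day 5 and 17.2, below the floor, at day 12. The 5 that were above the floor on both arrays thus all had lower signals at day 12, spread over 0.67 on the log2 scale. The 2 brightest of them differed by 0.02, where the 2 brightest probe sets of a gene differed by a median of 0.16 over 4020 genes, with 0.48 at the 90th percentile. This spread between probe sets covers probe error and not differences between cultures. Of the 10479 measured genes, 60 had a lower log2 ratio than Meg3.

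Rian and Mirg, further noncoding RNAs of the maternal copy that carry small nucleolar RNAs and microRNAs, are often read as 1 long transcript with Meg3. The leading Rian probe set went from 3189.8 to 1728 (log2 ratio -0.88, 1.85-fold lower). The second Rian probe set went from 1208 to 647 with nearly the same log2 ratio (-0.90). The third had a signal of 49.6 at day 5 and 26.5, below the floor, at day 12. Rian was thus lower at day 12 by both of its bright probe sets, and short of 2-fold in each. Mirg was seen at day 5 alone, at 82.8, and had 22.5 at day 12, which makes it at least 1.85-fold lower. With a floor at the 50th percentile Mirg was above it on both arrays and had a log2 ratio of -1.88, so the bound is set by the floor.

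Dlk1 encodes a transmembrane protein with EGF-like repeats, also known as preadipocyte factor, that holds back adipocyte and osteoblast differentiation. Its brighter probe set had a signal of 63.9 on the first array and 30.6, under the floor, on the second, which makes it at least 1.43-fold lower. Its other probe set was below the floor on both arrays, with 3.55 and 4.71. Of 5 adipocyte markers measured, Lpl passed 2-fold upward (log2 ratio 1.08) and none downward, against 3.56% and 1.73% of all measured genes. The other 4 had ratios below 0, namely Fabp4 (-0.83), Adipoq (a bound of -0.75), Pparg (-0.54) and Cebpa (-0.12).

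Cdkn1c had a single probe set. It went from 2926 to 1198, a log2 ratio of -1.29 or 2.44-fold lower, and 83 measured genes had a lower ratio. No second probe set was there to set beside it. The related inhibitors p21 and p27 are encoded by Cdkn1a and Cdkn1b. Cdkn1a went from 2978 to 4964 (log2 ratio 0.74), with 0.68 in its other probe set, and Cdkn1b from 492 to 627 (0.35). Cdkn1c therefore had the only lower signal of the 3 genes of this inhibitor family on these arrays.

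Among 20 measured genes of the wider set of kinase inhibitors, cyclins, kinases and retinoblastoma proteins, the median log2 ratio was 0.0026. Of the 20, 1 passed 2-fold upward and 1 downward, against 3.56% and 1.73% of all measured genes. The higher gene was Cdkn2a, the locus of the p16 and p19 tumour suppressors, which went from 351 to 819 (log2 ratio 1.22). The lower one was Ccne1, a cyclin of the entry into DNA synthesis, which went from 666 to 289 (-1.21). Rb1, the retinoblastoma gene, went from 312 to 613 (0.97). By their leading probe sets Ccnd1 and Ccnd2 had log2 ratios of 0.22 and -0.07. Over all its measured probe sets Ccnd2 ranged from -0.93 to -0.03. In the list of proliferation genes, none of 22 measured passed 2-fold, against 1.73% lower and 3.56% higher over all measured genes. Of the 22, 18 had a ratio below 0, against 56.9% of all genes measured on both arrays, and the median log2 ratio was -0.22. Mcm2, a replication helicase subunit, was lowest (510.4 to 296, log2 ratio -0.79), followed by Plk1 (-0.50), Mcm5 (-0.45) and Mcm6 (-0.39). These are leading probe sets, and another Mcm2 probe set went from 429 to 344 (-0.32). Mki67 went from 1183 to 1202 and Top2a from 1572 to 1561.

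Peg3 encodes a large zinc finger protein that acts in growth and maternal behaviour. Its leading probe set went from 4131 to 1888 (log2 ratio -1.13, 2.19-fold lower). The second went from 3037 to 1124 (-1.43) and the third from 904 to 269 (-1.75, 3.36-fold lower). All 3 were at least 2-fold lower, and the leading one, which stands for the gene, had the smallest difference. The remaining 2 probe sets were below the floor on both arrays. Over all genes, 55 were at least 2-fold lower and had a second probe set above the floor on both arrays. That second probe set was also lower in 55 of them, and at least 2-fold lower in 38, among which are Meg3 and Peg3.

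Plagl1, a zinc finger transcription factor that controls other imprinted genes, went from 7613 to 5902 by its leading probe set (log2 ratio -0.37). That probe set can share sequence with other transcripts, as its name ending _x_at states. The second went from 130.1 to 93.0 (-0.48), and the third from 50.4 to 17.6, below the floor. The 2 that both arrays measured were lower at day 12 and short of 2-fold, and the third gives only a bound. Ndn encodes necdin, a growth suppressor of the MAGE family. The 5 Ndn probe sets that both arrays measured went from 2641 to 1821, 2421 to 1746, 2165 to 1425, 1920.4 to 1209 and 1586 to 983. Their log2 ratios ranged from -0.69 to -0.47, a narrow band that lies short of 2-fold. The leading Ndn probe set, like that of Meg3, also has a name ending _x_at. Without probe sets of shared sequence Ndn had -0.47 and Meg3 -1.40. The remaining 3 Ndn probe sets were below the floor on both arrays.

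Mest, a hydrolase-like protein of mesoderm, had 1 probe set, which went from 5822 to 6192 (log2 ratio 0.09). This value was above 0 as deposited and -0.04 under quantile normalisation, so no direction is read from it. H19 is a maternally expressed noncoding RNA that restrains growth, and its only probe set is annotated with Mir675 as well. It went from 8724 to 9907 (log2 ratio 0.18), and that value cannot be assigned to H19 alone. Igf2, the fetal growth factor next to H19 and expressed from the opposite parental copy, went from 8624 to 6986 by its leading probe set (-0.30). A second Igf2 probe set went from 143 to 66.6 (-1.11). The probe sets of Igf2 thus pointed the same way with unequal size.

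**Figure D2:**
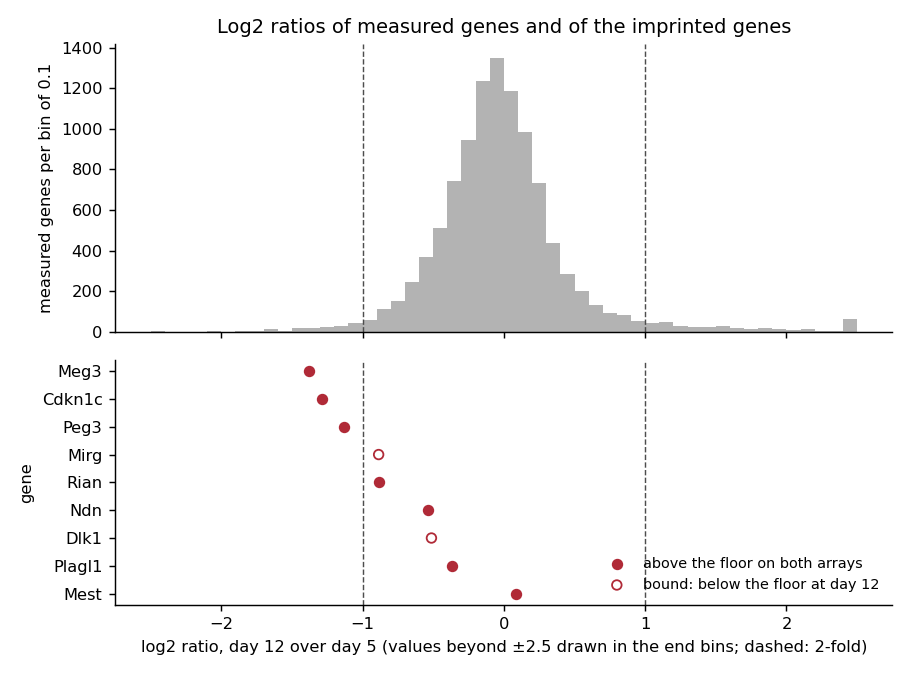
Upper panel, number of measured genes per bin of the log2 ratio of day 12 over day 5; lower panel, the same ratio for the leading probe set of each of the 9 imprinted genes, with open points for genes below the floor at day 12 and dashed lines at 2-fold. Meg3 at -1.38, Cdkn1c at -1.29 and Peg3 at -1.13, which were chosen for their difference, lie beyond 2-fold. Mest at 0.09 (-0.04 under quantile normalisation) is the only one above 0.

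The genes beside the members on the chromosome were set beside them by position alone. The 3 measured genes on each side of each member, in the order of the RefSeq table, came to 41 genes that are not members. None of the 41 was at least 2-fold lower or higher, against 1.73% lower and 3.56% higher over all measured genes. Their median log2 ratio was 0.02, with a range from -0.67 in Phactr2 to 0.96 in Lsp1. The 15 genes beside Meg3, Cdkn1c and Peg3 had a median of -0.14. Since these 3 members were chosen for their difference, nothing is read from their lying further from 0 than genes not so chosen. In the cluster from Dlk1 to Mirg, the flanking genes Yy1, Slc25a29 and Wars on 1 side had log2 ratios of 0.11, 0.18 and -0.26. Ppp2r5c, Dync1h1 and Hsp90aa1 on the other side had 0.09, 0.23 and 0.12. Of these 6 flanking genes Wars alone had a ratio below 0. Beside Cdkn1c, the imprinted neighbours Tssc4 (-0.44), Nap1l4 (-0.10) and Cd81 (0.06) were short of 2-fold, as was Cars (0.21), while Slc22a18 (-0.45) and Kcnq1ot1 (-0.32) have bounds only. Beside Peg3, Zim1, a zinc finger gene of the same imprinted cluster, was seen at day 5 alone (59.0, then 21.3), and Zik1 had a log2 ratio of -0.43. With a floor at the 50th percentile Zim1 and Slc22a18 were at least 2-fold lower, so their bounds depend on the floor.

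**Figure D3:**
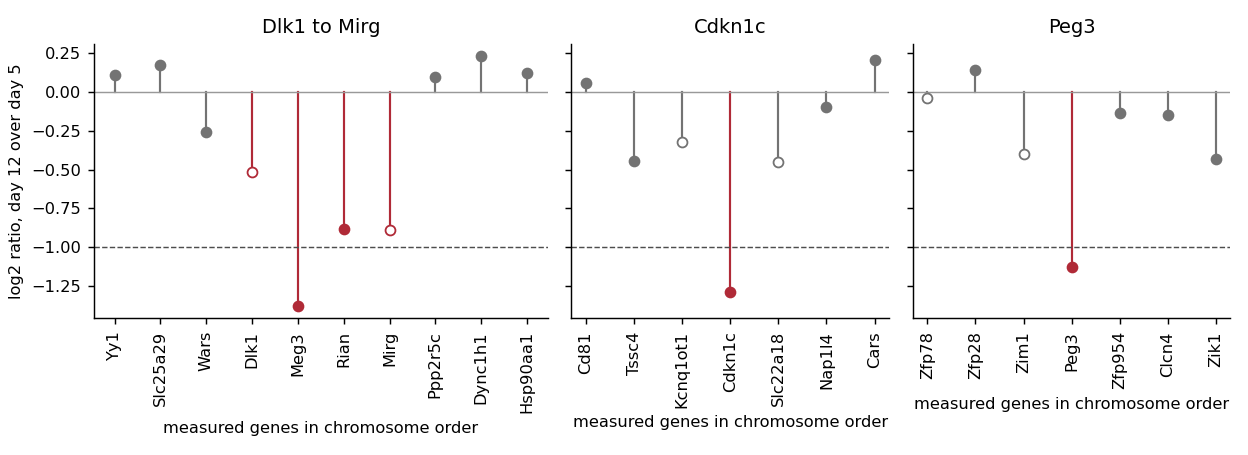
Log2 ratio of day 12 over day 5 for the measured genes in chromosome order around the cluster from Dlk1 to Mirg, around Cdkn1c and around Peg3. The members are in red and other genes in grey. Open points mark genes below the floor on 1 array, and the dashed line is 2-fold lower. Only Meg3, Cdkn1c and Peg3, which were chosen for their difference, lie beyond it.

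Other imprinted genes were taken from a list. It held 68 genes, 29 of them from the members' clusters and 39 others. A probe set of their own was found for 54, and 38 were measured. It includes genes whose imprinting is limited to some tissues, and the zinc finger genes Zfp57 and Zfp568, which act on imprinted loci. None of the 38 was at least 2-fold lower or higher, against 1.73% lower and 3.56% higher over all measured genes. Their median log2 ratio was -0.15 and 27 had a ratio below 0, but genes measured at day 5 alone had to lie there. Of the 30 above the floor on both arrays, 20 had a ratio below 0, against 56.9% of all such genes, and their median was -0.08. The ratios of the 38 ran from -0.80 in Cobl to 0.49 in Ago2. With no replicate, these medians cannot be told apart from a difference between the cultures or the arrays. Grb10, an adaptor that dampens insulin and IGF signalling, went from 5377 to 5467 (0.02). Igf2r, which clears Igf2, went from 1511 to 1484 (-0.03), and Airn, the noncoding RNA that silences it, from 114.2 to 83.6 (-0.45). Gnas, the gene of the stimulatory G protein subunit, had a log2 ratio of 0.10 and Dcn, the proteoglycan decorin, of -0.10. Sgce (sarcoglycan epsilon) had -0.40 and Slc38a4, an amino acid transporter, 0.19. Phactr2 (-0.67), which lies beside Plagl1, Adam23 (-0.54) and Mcts2 (-0.53) followed Cobl as the lowest genes above the floor on both arrays. Nap1l5 was seen at day 5 alone (69.1, then 19.4).

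**Figure D4:**
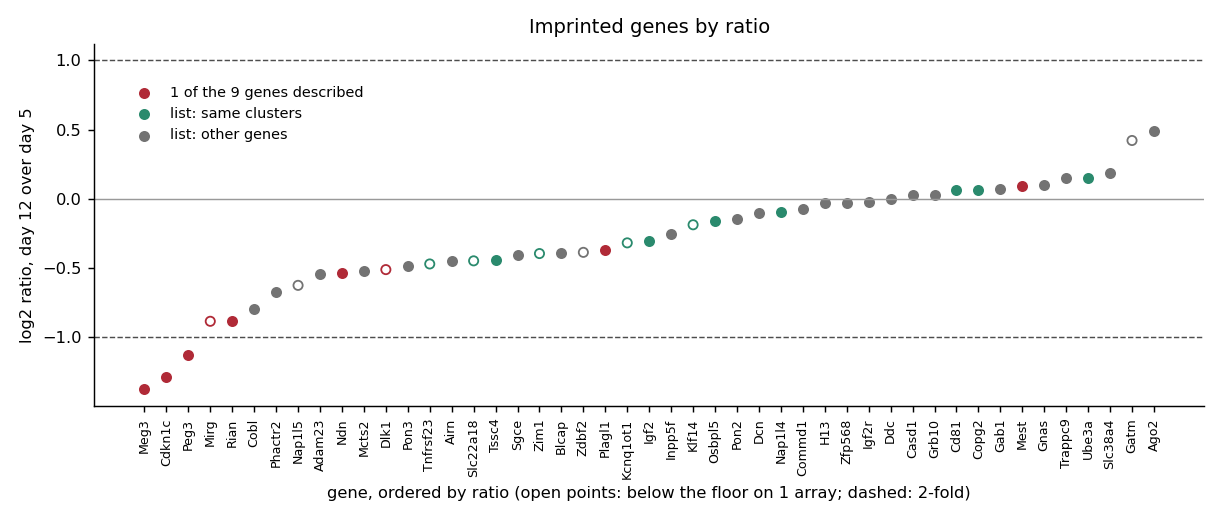
Log2 ratio of day 12 over day 5 of the 9 imprinted genes described (red) and of 38 measured genes of the imprinted list (green for the members' clusters, grey for others), in order of ratio, with open points for genes below the floor on 1 array and dashed lines at 2-fold. Meg3, Cdkn1c and Peg3 are the 3 lowest, but they were chosen for their difference, so nothing is read from that order. No gene of the list passes 2-fold.

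Factors that keep or remove the methylation of imprinted loci were measured for 12 of 16 genes. None passed 2-fold, against 1.73% lower and 3.56% higher over all measured genes. Dnmt1, the maintenance methyltransferase, went from 717 to 552 (log2 ratio -0.38) and its partner Uhrf1 had -0.15. Trim28, the corepressor that zinc finger proteins bring to imprinted loci, had 0.08 and Zfp445 0.04. Tet1 and Tet2, which oxidise methylated cytosine, had 0.68 and 0.53. The median of the 12 was -0.03.

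Markers of some other cell types also differed between the arrays. The counts below stand against 1.73% of all measured genes at least 2-fold lower and 3.56% at least 2-fold higher. In bulk RNA, fewer cells of a type and less RNA per cell cannot be told apart. Of 15 measured chondrocyte markers, 9 were lower by 2-fold or more at day 12 and none was higher by that much. The median log2 ratio of the 15 was -1.46. Both the 9 and the median include Matn1, Snorc and Ucma, measured through day 5 alone, which had to lie below 0. The summed signal of the 15 was 45395 at day 5 and 24068 at day 12. Cartilage collagen Col2a1 kept a signal of 4439 at day 12 (log2 ratio -0.92), Matn1 went from 1507 to below the floor, and Comp had 0.07. Of 11 measured myeloid markers, 10 were higher by 2-fold or more and none was lower by that much, and their summed signal went from 4968 to 12365. Itgam, the gene of CD11b itself, stayed below the floor at each time (14.6 and 35.4). The part of either cell type in the lower signals of Meg3, Cdkn1c and Peg3 was not tested. Of 9 endothelial markers 8 were below the floor on both arrays, including Pecam1 and Cdh5, and the ninth, Erg, had a log2 ratio of -0.15. Osteoblast markers were present on both arrays, and 4 of 7 measured were at least 2-fold higher, which were Sp7, Alpl, Ibsp and Ifitm5. Runx2, Bglap and Spp1 were not analysed here. The 3' over 5' signal ratio, a measure of RNA integrity, differed little between the arrays: for Actb it was 1.25 and then 1.22, and for Gapdh 0.736 and then 0.799.

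**Figure D5:**
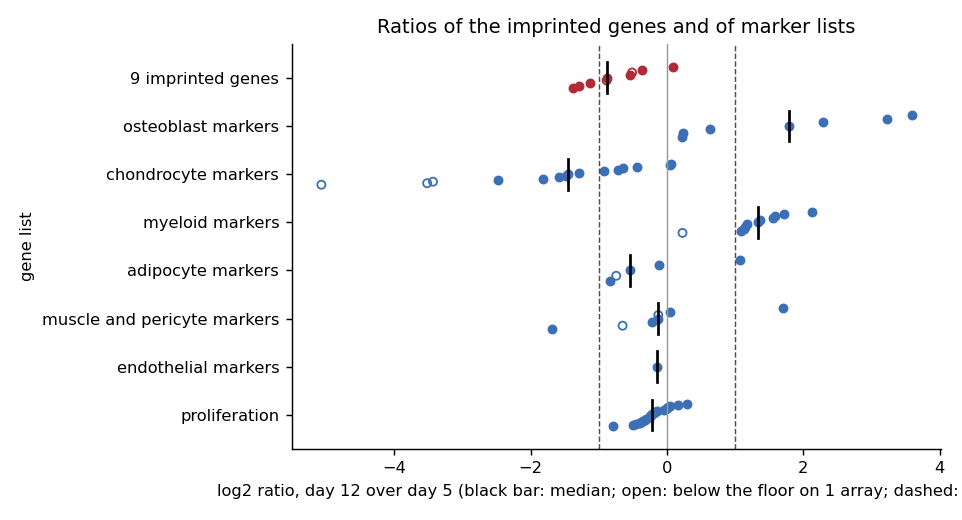
Log2 ratio of day 12 over day 5 of the 9 imprinted genes and of the measured genes of 7 marker lists, 1 point per gene, with a black bar at the median, open points for genes below the floor on 1 array and dashed lines at 2-fold. The imprinted genes have a median of -0.88, which includes Meg3, Cdkn1c and Peg3, chosen for their difference, so nothing is read from it. Without those genes it is -0.52, with Mirg and Dlk1 given as bounds that had to lie below 0. The median is -1.46 for the chondrocyte markers, 1.33 for the myeloid markers and -0.22 for the proliferation genes. The chondrocyte median includes Matn1, Snorc and Ucma, given as bounds that had to lie below 0.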

How the data were processed

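RNA of 2 cultures was hybridised to 1 Affymetrix array each. GCOS 1.4 and MAS5 are named in the submitters' processing notes; the settings and the genome build are not given in the sources used here. The authors deposited linear signal intensity values of 45101 probe sets. The mean after trimming 2% at each end was 200.0 on both arrays, so each was scaled to the same target, and a change in total RNA per cell cannot be seen. No detection calls were used. Values were not normalised further. Gene symbols came from the platform's annotation table. Apart from 64 controls, 34945 probe sets had 1 symbol, 932 several and 9160 none. Symbols were updated through the Entrez number for 34741 in a RefSeq table of GRCm38.p6, which also gave neighbours and sequences. Probe sets with several symbols represent no gene.

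The members, lists, floor, 2-fold threshold and choice of leading probe set were set with earlier results of these data known. Names were drawn from the members, imprinted genes, neighbours, kinase inhibitors, list genes past 2-fold and up to 4 others of each list with the largest ratio, and not all of them are printed; Mki67, Top2a, Ccnd1, Ccnd2, Uhrf1, Trim28, Zfp445, Comp, Itgam, Pecam1, Cdh5, Igf2bp1, Igf1, Igf1r, Igfbp2, Notch2 and Jag1 were added after their values were seen. There was no test. The planned protein comparison was not run, and those sequences were not used here. Tried as alternatives were 3-fold and 1.5-fold thresholds, loess, quantile normalisation and median centring, a pseudocount of 16, the 75th or the 50th percentile as floor, the median over probe sets, and leaving out probe sets whose name marks shared sequence. Simulated data were used to test the code, in Python 3.11.15 with pandas 2.3.3, numpy 2.4.6 and statsmodels 0.14.6.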

Additional observations from a re-analysis of the deposited data

How the results depend on the processing

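Meg3, Cdkn1c and Peg3 were the members at least 2-fold lower as reported, under median centring, quantile normalisation and loess, with the 75th percentile floor, with the median over probe sets and without probe sets of shared sequence. Their log2 ratios over all 10 alternatives ran from -1.40 to -1.31 for Meg3, from -1.32 to -1.23 for Cdkn1c and from -1.43 to -1.07 for Peg3. No member was at least 2-fold higher under any of the 10. With the 50th percentile floor 5 members were at least 2-fold lower, Mirg and Dlk1 being added, the members' median was -1.06, 4 other imprinted genes (Slc22a18, Zim1, Nap1l5 and Zdbf2) passed and 297 genes in all were lower. With the 75th percentile floor 74 genes were lower and 223 higher, of fewer genes measured. A pseudocount added Mirg to the members and gave 2 other imprinted genes, Zim1 and Nap1l5. At 1.5-fold, 5 members (Rian and Mirg added) and 3 other imprinted genes (Cobl, Nap1l5 and Phactr2) were lower, against 807 genes lower and 760.0 higher in all. At 3-fold, 0 members were lower by their leading probe set, with 36 genes lower and 175 higher. Without probe sets of shared sequence Plagl1 rests on its dimmest probe set alone, with -0.17, and Dlk1 has no measured probe set. No paired analysis was possible because each day has 1 array. With 1 array a day the precision is limited throughout, and values near the floor are the least certain.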

Other observations

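Genes that surround the growth role of this group differed among themselves. Of 13 measured genes of the IGF axis and its fetal regulators, 1 passed 2-fold downward by its leading probe set and none upward. Of all measured genes 1.73% were that much lower and 3.56% that much higher. The 13 had a median log2 ratio of -0.17. The lower gene was Igf2bp3, a fetal RNA-binding protein that binds Igf2 transcripts. Its leading probe set went from a signal of 299.6 to 92.3 (log2 ratio -1.70). Further Igf2bp3 probe sets with -1.27 and -1.29 were past 2-fold too, but another went only from 132 to 108 (-0.29). Those measured through day 5 alone have bounds of -0.53 and -0.40. The size of the Igf2bp3 difference thus depends on the probe set. Hmga2, a chromatin protein of fetal growth, went from 378 to 199 by its leading probe set (-0.92). Its other measured probe sets had -1.20 and -1.23, past 2-fold. Igf2bp1 went from 124 to 89.7 (-0.47). Igf1 had a log2 ratio of -0.27, its receptor gene Igf1r 0.27 and the adaptor gene Irs1 0.50. Igfbp2, a binding protein of the IGFs, went from 10437 to 8410.0 (-0.31).

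Of 7 measured genes of the Notch pathway, on which Dlk1 can act, none passed 2-fold. Of all measured genes 1.73% were that much lower and 3.56% that much higher. The 7 had a median log2 ratio of 0.21. Nothing is read from it, since it includes Hey1 and Dlk2, measured through day 12 alone and so unable to lie clearly below 0. Notch1 went from 248 to 125 (-0.98), just short of 2-fold, and Hes1 from 225 to 171 (-0.40), while Notch2 had 0.21 and Jag1 0.05. Hey1 and the Dlk1 relative Dlk2 were seen at day 12 alone, with bounds of 0.59 and 0.48.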
